A study of Homo sapiens with 6 samples.

Results

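The genes described here were 7 kallikreins of the epidermis, *KLK5*, *KLK6*, *KLK7*, *KLK8*, *KLK10*, *KLK11* and *KLK13*, and 2 Kazal-type inhibitors, *SPINK5* and *SPINK6*. They were chosen by name, as the kallikreins linked to shedding of the cornified layer and the SPINK genes that restrain them, and their rows were found through their Ensembl identifiers, giving 9 of the 21475 genes used. RNA-seq values came from 3 wild-type (WT) and 3 *FGFR2* knockout (FGFR2 KO) lines of HaCaT, a spontaneously immortalized human keratinocyte line, all cultured without added stimulus in high-glucose DMEM with fetal bovine serum. In the KO lines a guide to exon 7 of *FGFR2*, delivered as a Cas9 complex, had disrupted the gene of the receptor through which keratinocytes respond to FGF7. Each KO line grew from a single sorted cell, and the WT lines of the study were the starting population and clones expanded in the same way. Whether the starting population is among the 3 WT replicates is not given by the labels. A figure legend of the study describes 3 HaCaT lines of these data as clonally expanded. Clonally expanded HaCaT cells were also described as unable to complete terminal differentiation in 3D culture.

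Kallikreins are secreted serine proteases made as inactive precursors. In the upper epidermis KLK5 activates itself and then KLK7 and KLK14, and these enzymes cut corneodesmosin, desmoglein 1 and desmocollin 1, the proteins that hold corneocytes together, so that cells are shed. *SPINK5* encodes LEKTI, a chain of Kazal domains that blocks KLK5, KLK7 and KLK14 at the pH of the deeper layers, and its loss causes Netherton syndrome, in which unrestrained kallikreins thin the barrier. SPINK6 is a small inhibitor with a single Kazal domain that acts on the same proteases. KLK5 and KLK14 also cut protease-activated receptor 2 on keratinocytes, a receptor linked to itch and inflammation.

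In these lines the receptor knockout left the 9 genes with no difference that passed the test, and the values of the genotypes overlapped for each of them. The 7 kallikreins and both inhibitors were detected in both genotypes, from a mean over the 6 libraries of 151 FPKM for *KLK10* down to single-digit values for *KLK6* and *SPINK6*. Of the 9 members, 0 were called by limma (adjusted p not above 0.05, with KO and WT at least 0.5 apart on the log2 scale), beside 0 of 12241 tested genes (0%). At an unadjusted p of 0.05 and the same fold change 0 members passed, beside 1536 tested genes (12.5%), of which 1251 were higher and 285 lower in the KO lines (818 and 488 under median-of-ratios scaling). Without WT 2 the count of members was 2, beside 1137 of 12180 tested genes. With library weights the count of members was 3, beside 2162 of 12241 tested genes. For no member did all lines of 1 genotype lie above all lines of the other, so 0 members had groups apart, beside 2951 tested genes (24.1%), 2245 with the KO lines higher (18.3%) and 706 with them lower (5.77%).

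The libraries were estimated at 67800000 to 88100000 fragments, at which 1 fragment on 1 kb of transcript was worth 0.0114 to 0.0148 FPKM (fragments per kilobase of transcript, scaled to sequencing depth). *FGFR2* itself was listed at 21.6, 39.7 and 15.0 FPKM in WT 1, 2 and 3 and at 3.04, 2.26 and 4.31 in KO 1, 2 and 3, a log2 fold change of -2.73 (SE 0.363) with an adjusted p of 0.261 by limma. This was the smallest adjusted p in the fit, and several other genes named here shared it. The authors' own test, DESeq2, did call genes between WT and KO lines, with *FGFR2* strongly lower and *IL1B* higher. The absence of calls here therefore applies to this fit of FPKM. The 8 keratinocyte markers examined, among them *KRT5*, *KRT14* and *TP63*, were present in every library. Of the fibroblast markers, *COL1A2*, *COL3A1* and *PDGFRB* stayed at or under 0.0638 FPKM, but *COL1A1* was at 6.82 to 16.7 FPKM in all libraries, *DCN* reached 15.5 FPKM in WT 2 and 1.66 in KO 1, and *LUM* 0.903 in WT 2 and 1.85 in KO 1. The endothelial *CDH5* was at 4.92 FPKM in WT 2 and at most 0.128 elsewhere. *VWF*, at 18.0 to 27.1 FPKM in the WT and 5.66 to 17.4 in the KO lines, and the macrophage marker *CD68*, at 11.4 to 20.4 and 4.41 to 10.8, were lower in all KO than in all WT lines. The summed fibroblast list was 7.99 to 33.2 FPKM in the WT and 6.91 to 12.6 in the KO lines, the endothelial list 18.1 to 27.2 and 5.82 to 17.5, the immune list 11.6 to 20.5 and 4.49 to 11.0, and the melanocyte list 0.881 to 2.44 and 0.708 to 1.07. *PTPRC*, the pan-leukocyte marker, was at most 0.153 FPKM, and *MLANA* and *TYR* at most 0.0208. *PMEL*, another melanocyte marker, was at 0.697 to 2.43 FPKM. *PECAM1*, the other endothelial marker examined, was at most 0.321 FPKM, and its WT and KO values overlapped. Since these are bulk libraries, fewer cells that express a gene and less RNA of it per cell cannot be told apart. *DCN* and *CDH5* were highest in WT 2, and for some of the genes that change without this line, values are also given without it.

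The 7 member kallikreins lie within 121.8 kb of chromosome 19, all on the minus strand (GRCh38, GENCODE release 44, chr19:50943303-51065114), inside a cluster of 15 kallikrein genes over 265.1 kb. *SPINK5* (chr5:148025683-148137382) and *SPINK6* (chr5:148202794-148215137) lie on the plus strand of chromosome 5, in a cluster with other SPINK genes. RefSeq promoter windows (GRCh38.p14, 250 bases before to 50 after a start site) were available for 8 members and not for *KLK8*. The windows before the starts of *KLK5* and *KLK13* are shown because these genes sit near either end of the member kallikreins and differed in which libraries were high, and the *SPINK5* window because their inhibitor is read from another chromosome. The *SPINK5* window lies inside the gene's annotated span, in an intron of a transcript that starts farther upstream. Only the bases ahead of the first annotated exon in a window are given, 5′ to 3′ on the gene's strand, and capitals mark CACCC, the core of the sites that Krüppel-like factors bind, on either strand (GGGTG on the other).
*KLK5*, chr19:50953094-50953288, minus strand: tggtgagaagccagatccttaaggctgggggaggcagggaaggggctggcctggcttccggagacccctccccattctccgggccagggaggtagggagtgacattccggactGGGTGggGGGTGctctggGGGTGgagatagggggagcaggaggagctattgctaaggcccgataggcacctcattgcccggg
*KLK13*, chr19:51065115-51065342, minus strand: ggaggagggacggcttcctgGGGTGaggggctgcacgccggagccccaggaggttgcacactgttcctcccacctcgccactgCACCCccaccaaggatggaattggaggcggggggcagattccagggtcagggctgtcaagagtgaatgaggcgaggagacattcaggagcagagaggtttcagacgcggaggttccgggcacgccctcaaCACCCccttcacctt
*SPINK5*, chr5:148063730-148063862, plus strand: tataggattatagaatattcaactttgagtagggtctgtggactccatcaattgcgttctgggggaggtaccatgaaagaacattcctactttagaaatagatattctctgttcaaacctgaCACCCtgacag

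CACCC was found in 13 of 14 member windows and in windows of all 8 genes, and in 59.9% of the 35116 promoter windows of all genes. Windows of the same gene overlap for *KLK7*, *KLK10* and *KLK13*, among others, so some sites are counted more than once. The share over all genes is per window, not per gene. TATAAA, searched on both strands, was found in a window of *SPINK5* only, beside 11.5% of all windows. It is shown here in capitals with its overlapping copy on the other strand and the bases around it (chr5:148063940-148063969, plus strand):
*SPINK5*: accagtgcTTTATAAAagtaaactgcatcg
In the *SPINK5* window the plus-strand copy began 30 bases before the annotated start. TGANTCA, a loose pattern for AP-1 sites that allows any middle base, was found in a *SPINK6* window only, beside 7.71% of all windows. The match there was TGAATCA and lay across the annotated start. The kallikrein windows held 59.0% to 70.7% G and C, the *SPINK5* window 43.7% and the *SPINK6* windows 39.0% and 40.3%, while all windows had a median of 58.7% (interquartile range 47.0% to 68.0%). These matches describe letters in a window and were not tested for binding.

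*KLK5* is the trypsin-like protease that starts the cascade. It was listed at 131 FPKM in WT 1, 96.2 in WT 2 and 202 in WT 3, and at 133, 136 and 169 FPKM in KO 1, 2 and 3. The KO lines all lay inside the range of the WT lines, whose highest value was 2.10 times the lowest. The means were 143 ± 53.7 FPKM in the WT and 146 ± 19.9 in the KO lines (SD, n = 3 each). The log2 fold change was 0.09 (95% interval -0.53 to 0.71, adjusted p = 0.879 by limma), and it was -0.00446 under median-of-ratios scaling. Without WT 2 it was -0.16, and without WT 3 it was 0.37. An exact two-sided permutation test of log2(FPKM + 0.5), which cannot go below 0.1 with 3 lines against 3, gave p = 0.8.

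*KLK7* is the chymotrypsin-like partner that KLK5 activates and a major protease of the cornified layer. Its values were 28.4, 13.6 and 45.5 FPKM in WT 1, 2 and 3 and 15.6, 23.7 and 16.4 FPKM in KO 1, 2 and 3. The 3 KO lines stayed within a 1.52-fold range while the WT lines spread over 3.36-fold, with WT 3 highest and WT 2 lowest of all 6. The difference in mean, 29.2 ± 16.0 against 18.6 ± 4.44 FPKM (SD, n = 3 each), gave a log2 fold change of -0.50 (95% interval -1.44 to 0.44, adjusted p = 0.539 by limma). Without WT 2 the KO lines lay below both other WT lines and the log2 fold change was -0.96 (adjusted p = 0.427), and without WT 3 it was -0.10.

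*KLK8*, also called neuropsin, is a trypsin-like protease of the upper epidermis and of brain. It was at 49.6 and 48.7 FPKM in WT 1 and 2 and at 102 FPKM in WT 3, and at 104 FPKM in KO 1 against 45.4 and 47.7 in KO 2 and 3. A single line of each genotype was near 100 FPKM and the other lines near 50. The means were 66.6 ± 30.3 and 65.6 ± 33.0 FPKM (SD, n = 3 each). The log2 fold change was -0.04 (95% interval -0.96 to 0.87, adjusted p = 0.967 by limma). *KLK8* overlaps *KLK9* by 0.204 kb on the same strand, and a further annotated gene (ENSG00000269741) overlaps both, so the division of reads among these genes is uncertain. That gene was listed at 0.099 to 1.5 FPKM.

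*KLK6*, or neurosin, is a trypsin-like protease and the least abundant member kallikrein here. Its levels were 6.15, 3.27 and 9.38 FPKM in WT 1, 2 and 3 and 5.37, 5.67 and 7.59 FPKM in KO 1, 2 and 3. As for *KLK5*, its neighbour, all KO lines lay within the WT range, WT 3 was highest, KO 3 second and WT 2 lowest. The log2 fold change was 0.08 (95% interval -0.72 to 0.88, adjusted p = 0.918 by limma) and -0.00790 under median-of-ratios scaling. Without WT 2 it was -0.29, and without WT 3 it was 0.41.

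*KLK10*, first described as NES1, a gene lost from breast tumour cell lines, had the highest mean of the members. WT 1, 2 and 3 were at 151, 120 and 192 FPKM, and KO 1, 2 and 3 at 216, 138 and 85.7 FPKM. The highest and the lowest value of this gene were both found in KO lines, which spread over 2.52-fold against 1.59-fold in the WT lines. Means were 154 ± 35.9 and 147 ± 65.5 FPKM (SD, n = 3 each), a log2 fold change of -0.15 (95% interval -0.93 to 0.63, adjusted p = 0.840 by limma).

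*KLK11* and *KLK13* follow *KLK10* along the cluster, with *KLK12* between them, and encode further trypsin-like proteases. *KLK11* was at 69.2, 61.3 and 102 FPKM in WT 1, 2 and 3 and at 92.0, 81.9 and 39.4 in KO 1, 2 and 3. *KLK13* was at 15.7, 16.8 and 37.3 FPKM in the WT and 31.5, 25.2 and 8.39 FPKM in the KO lines, in the same order. For both genes WT 3 was highest, KO 1 second and KO 3 lowest, as KO 3 was also for *KLK10*. The log2 fold changes were -0.18 for *KLK11* (95% interval -0.97 to 0.61, adjusted p = 0.808) and -0.18 for *KLK13* (95% interval -1.39 to 1.03, adjusted p = 0.879), both by limma. Without KO 3 they were 0.20 and 0.39.

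*SPINK5*, the gene of LEKTI, was listed at 11.5, 9.96 and 23.3 FPKM in WT 1, 2 and 3 and at 51.4, 15.5 and 10.9 FPKM in KO 1, 2 and 3. KO 1 had the highest value and the other KO lines lay inside the WT range. The mean of 25.9 ± 22.2 FPKM in the KO against 14.9 ± 7.28 in the WT lines (SD, n = 3 each) gave a log2 fold change of 0.56 (95% interval -0.76 to 1.87, adjusted p = 0.630 by limma). Without KO 1 the log2 fold change was -0.09, so the sign of this difference rested on that line.

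*SPINK6* had the lowest mean of the members, at 2.31 FPKM in WT 1, listed at 0 in WT 2 and at 2.44 in WT 3, and at 1.15, 0.392 and 0.521 FPKM in KO 1, 2 and 3. WT 1 and WT 3 lay above all KO lines and WT 2 below them. The log2 fold change, on the log2(FPKM + 0.5) scale, was -0.49 (95% interval -2.06 to 1.09, adjusted p = 0.727 by limma) and was -0.23 with a pseudocount of 0.1. Leaving out WT 2 gave -1.33 (adjusted p = 0.427 by limma), whereas leaving out WT 1 or WT 3 gave -0.08 and -0.05. The transcripts of this gene are short, at 300 to 605 nucleotides in the annotation.

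**Figure D1:**
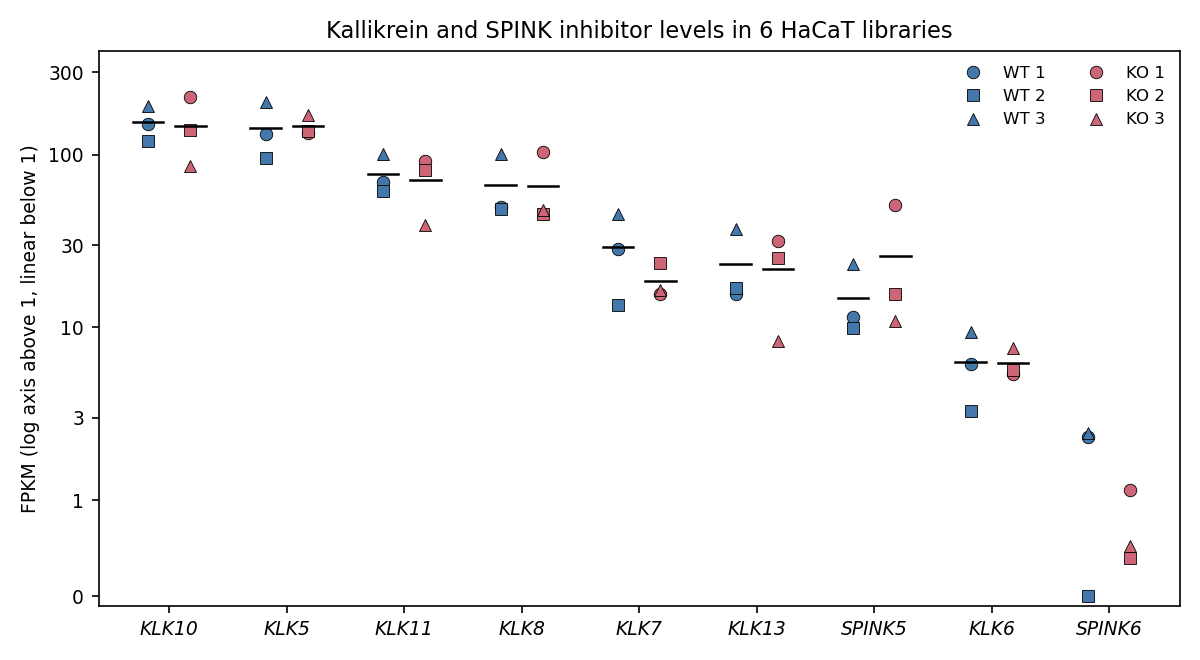
Level of each member in each library, in FPKM on an axis that is logarithmic above 1 and linear below, with WT lines in blue and KO lines in red and a bar at the mean of 3 lines (no bar for *SPINK6*, listed at 0 in WT 2). For every member the 2 groups overlap, and WT 3 is the highest or second highest line in 9 of 9 (share over all tested genes not counted).

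**Figure D2:**
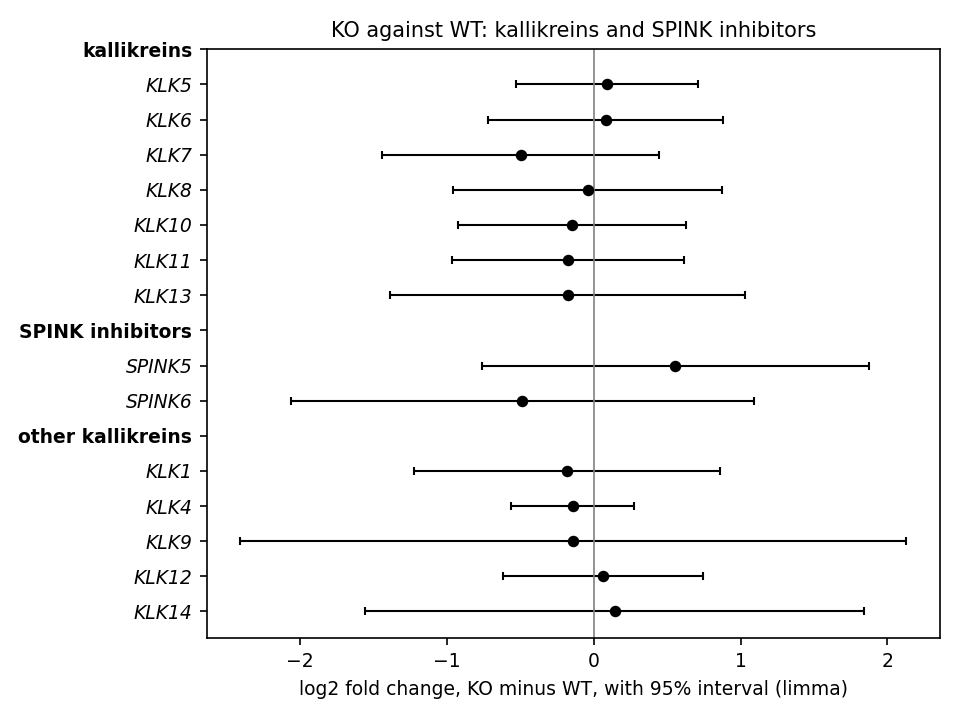
log2 fold change, KO minus WT, with its 95% interval from limma, for the 7 kallikreins, 2 SPINK inhibitors and 5 other tested kallikreins. Every interval includes 0, and the estimates of the members run from -0.50 for *KLK7* to 0.56 for *SPINK5*.

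Over the 9 members, 3 log2 fold changes were above 0 and 6 below (1 above 0 under median-of-ratios scaling), with a median of -0.15, beside a median of 0.09 over all tested genes, of which 7420 were above 0 and 4821 below. The 95% intervals still allowed changes of sizeable magnitude: for *KLK5*, the most tightly measured member, they reached -0.53 and 0.71 on the log2 scale, and for *SPINK6* -2.06 and 1.09. The absence of a call in 3 lines against 3 therefore does not show that the genotypes have equal levels.

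The members varied more between lines than most genes did. The SD of log2(FPKM + 0.5) over the 6 libraries had a median of 0.57 over the members and of 0.27 over all tested genes. *KLK5* varied least, with a larger SD than 69.4% of tested genes, and *KLK13*, *SPINK5* and *SPINK6* exceeded 94.6%, 96.4% and 97.5%. For *KLK5*, *KLK6* and *KLK7* the WT lines spread over 2.10-, 2.87- and 3.36-fold from lowest to highest and the KO lines over 1.27-, 1.41- and 1.52-fold. Without WT 2 the WT spreads were 1.54-, 1.53- and 1.61-fold. For *KLK10*, *KLK11* and *KLK13* the KO lines spread over 2.52-, 2.34- and 3.75-fold and the WT lines over 1.59-, 1.66- and 2.38-fold. Without KO 3 the KO spreads were 1.56-, 1.12- and 1.25-fold. These ratios describe 3 lines a group and were not tested.

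Certain lines were high or low for many members together. WT 3 was the highest line for 6 members, KO 1 for the other 3, WT 2 was the lowest for 5, KO 3 for 3 and KO 2 for 1. How often each single line was highest or lowest over all tested genes was not counted. WT 3 and KO 1 were the 2 highest lines for *KLK8*, *KLK10*, *KLK11*, *KLK13* and *SPINK5*, 5 of 9 members (55.6%), and for 3 of the 5 other tested kallikreins, while they were so for 860 of 12241 tested genes (7.03%). This pair of lines was singled out after the values were seen. *KLK5* and *KLK6* were not high in KO 1, at -0.08 and -0.14 from their means on the log2 scale, and *KLK7* was low there, at -0.47. The differentiation keratins moved with the same lines: *KRT1* was at 2254, 435 and 5121 FPKM in WT 1, 2 and 3 and at 3024, 1145 and 259 in KO 1, 2 and 3, and *KRT10* at 956, 607 and 2056 and at 1503, 530 and 86.2. WT 3 and KO 1 were the 2 highest lines for 6 of 8 keratinocyte markers, basal *KRT5* and *KRT14* included, and the summed list was 11511 to 24159 FPKM in the WT and 15312 to 30327 in the KO lines. *IVL*, another differentiation marker, did not follow them, at 338, 324 and 180 FPKM in the WT and 79.7, 265 and 81.8 in the KO lines. It was lowest in KO 1, where the keratins were high, and also low in KO 3. Its log2 fold change was -1.17 (adjusted p = 0.285 by limma). With library weights, where 1396 genes were called, its adjusted p was 0.037 by limma. The part of differentiation state in the kallikrein values was not tested.

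**Figure D3:**
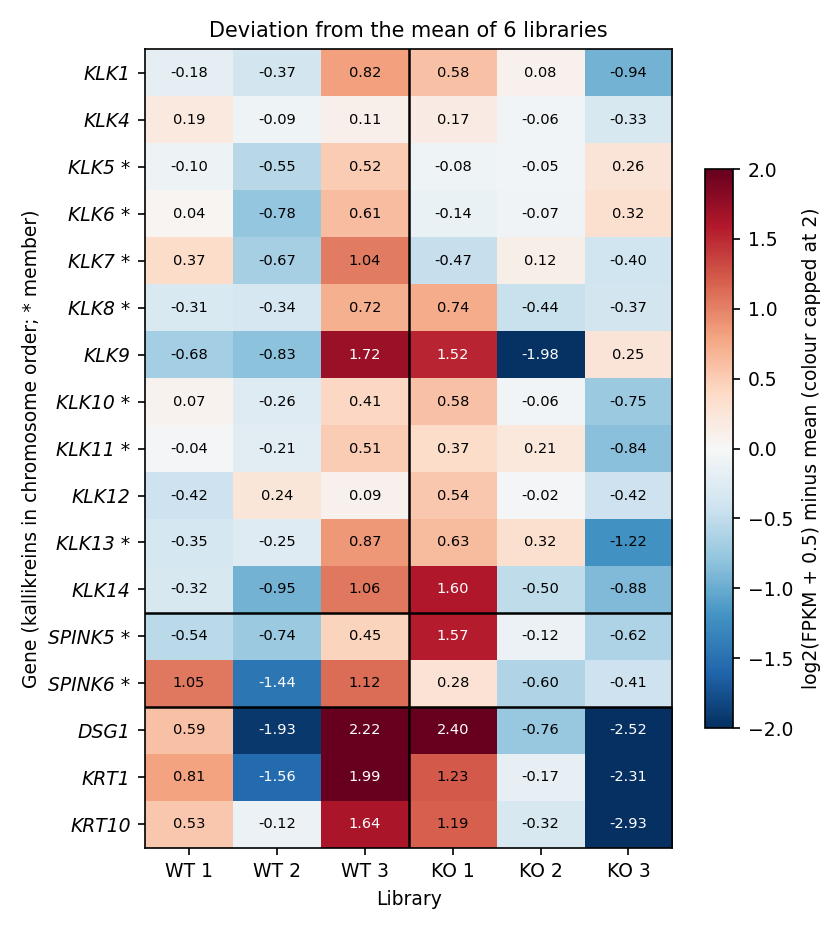
Deviation of log2(FPKM + 0.5) from the mean of the 6 libraries for the tested kallikreins in chromosome order (members starred), the 2 SPINK inhibitors, desmoglein 1 and 2 keratins, with libraries in columns and colour capped at 2. WT 3 is above the mean in every row, while KO 1 is above it for *KLK8* to *KLK14* and below it for *KLK5* to *KLK7*.

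Genes beside the clusters were compared with the members. *CTU1*, next to *KLK14*, was at 1.48 to 2.48 FPKM with a log2 fold change of 0.22 (adjusted p = 0.651 by limma), and *FBXO38*, beyond the SPINK genes, was at 29.7 to 35.7 FPKM with -0.05 (adjusted p = 0.868 by limma). *SMIM47*, on the side of *KLK1*, was at 0.309 to 0.755 FPKM and was not tested. Relative to each library's median, the median deviation of 909 tested genes on chromosome 19 was -0.08 to 0.04 on the log2 scale in the 6 libraries, and that of 529 on chromosome 5 was -0.06 to 0.04. The genes whose levels ran most like *KLK10* over the 6 libraries were *TSPAN10* (Pearson r = 0.999), *SULT2B1*, the cholesterol sulfotransferase of the cornifying epidermis (0.992), and *ZNF547* (0.989), of 170 genes above 0.9. For *SPINK5* *ZNF548* (0.990) and *CES3* (0.990) were among the most alike, of 123 genes above 0.9. With 6 libraries shared by all genes these values only describe likeness.

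By mean level the members stood in the order *KLK10*, *KLK5*, *KLK11*, *KLK8*, *KLK7*, *KLK13*, *SPINK5*, *KLK6* and *SPINK6*, on the FPKM scale that divides by transcript length. *KLK5* was above *KLK11*, *KLK8* above *KLK7*, *SPINK5* above *KLK6* and *KLK6* above *SPINK6* in 6 of 6 libraries. *KLK10* was above *KLK5* in 4, *KLK11* above *KLK8* in 4, *KLK13* above *SPINK5* in 4 and *KLK7* above *KLK13* in 3, so these neighbours did not separate. *KLK5* and *KLK10* together made up 57.1% to 68.1% of the summed kallikrein FPKM in every line.

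The balance of protease to inhibitor transcripts overlapped between the genotypes. The 7 kallikreins summed to 451, 360 and 689 FPKM in WT 1, 2 and 3 and to 597, 457 and 375 FPKM in KO 1, 2 and 3 (500 ± 170 and 476 ± 113, SD, n = 3 each). Divided by *SPINK5*, the sum was 39.3, 36.1 and 29.6 in the WT and 11.6, 29.4 and 34.5 in the KO lines. KO 1 lay apart with the lowest ratio, and the other 2 KO lines lay within or just under the WT values. *KLK7* alone over *SPINK5* was 0.304 in KO 1 and 1.36 to 2.47 in the other 5 lines. The ratio of *KLK5* to *KLK13* was 20.2 in KO 3 and 4.24 to 8.38 elsewhere. No test was made of these ratios, and RNA ratios carry no information on protein or on activity.

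**Figure D4:**
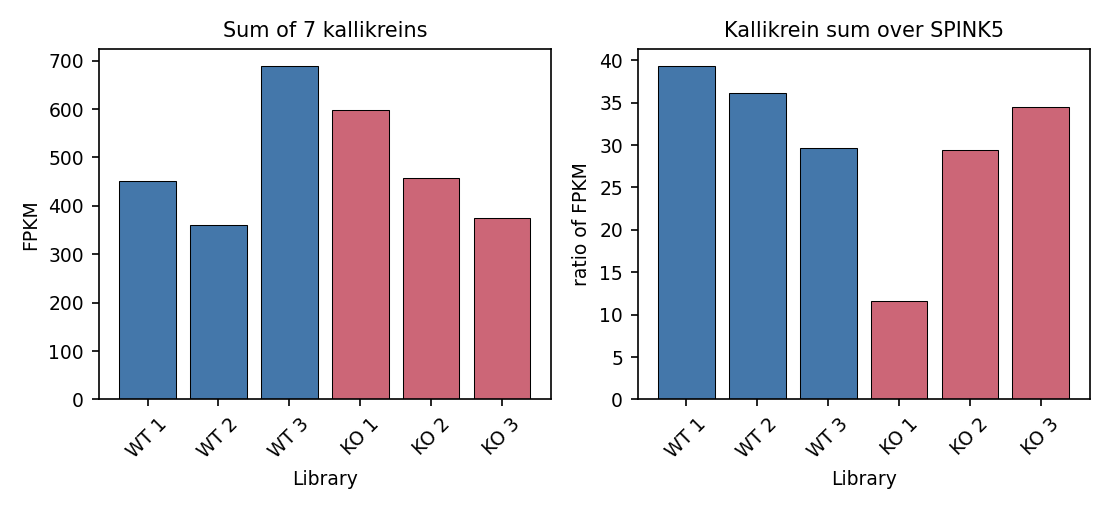
Summed FPKM of the 7 kallikreins (left) and that sum divided by *SPINK5* FPKM (right) in each library, WT in blue and KO in red, both axes from 0. The sum is highest in WT 3 and KO 1, and the ratio is lowest, at 11.6, in KO 1.

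Of the 8 other kallikrein genes, 5 were tested, 0 were called, and the largest log2 fold change was 0.18 in size. *KLK14*, the third protease of the shedding cascade, was at 1.67, 0.902 and 5.15 FPKM in WT 1, 2 and 3 and at 7.70, 1.42 and 0.970 in KO 1, 2 and 3, high again in WT 3 and KO 1 (log2 fold change 0.14, adjusted p = 0.934 by limma). *KLK9* was at 1.39, 1.21 and 9.49 FPKM in the WT and 8.20, 0.268 and 3.12 in the KO lines. *KLK1*, tissue kallikrein, was at 3.13 to 11.8 FPKM, *KLK12* at 2.66 to 5.65 and *KLK4* at 6.29 to 9.23. *KLK2* and *KLK15* stayed at or under 0.0504 FPKM and *KLK3*, which encodes prostate-specific antigen, was listed at 0 in every library.

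Among 19 other inhibitors of epidermal proteases, 7 were tested, 0 were called, and the median log2 fold change was 0.05. *SPINT1*, which encodes the matriptase inhibitor HAI-1, was at 296 ± 43.8 FPKM in the WT and 233 ± 38.7 in the KO lines, a log2 fold change of -0.34 (SE 0.179, adjusted p = 0.358 by limma). *SPINT2* (HAI-2) was at 137 ± 16.0 and 142 ± 16.6 FPKM. The elastase inhibitors *SLPI* and *PI3* (elafin) were high in WT 3 and KO 1: *PI3* was at 25.1, 6.58 and 128 FPKM in WT 1, 2 and 3 and at 421, 14.3 and 12.4 in KO 1, 2 and 3. *SLPI* was at 184 FPKM in WT 3 and 224 in KO 1 and at 61.9 to 83.9 elsewhere. The 1 inhibitor whose groups did not overlap, named after its values were seen, was *SERPINB6*, an intracellular serpin, at 83.0 ± 9.39 FPKM in the WT and 110 ± 8.85 in the KO lines (SD, n = 3 each, adjusted p = 0.261 by limma).

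Among 12 other proteases of the epidermis, 9 were tested and 0 called, with 1 higher and 2 lower at an unadjusted p, beside 10.2% and 2.33% of all tested genes. *ST14*, which encodes matriptase, a protease that can activate prokallikreins, was at 294 ± 40.0 and 274 ± 17.6 FPKM in WT and KO lines. Prostasin, its partner, encoded by *PRSS8*, was at 75.2, 76.2 and 76.1 FPKM in WT 1, 2 and 3 and at 62.6, 60.8 and 43.2 in KO 1, 2 and 3, so that all KO lines lay below all WT lines (log2 fold change -0.47, SE 0.168, adjusted p = 0.261 by limma). The lysosomal protease gene *CTSD* was at 1014 ± 255 and 830 ± 35.8 FPKM, a log2 fold change of -0.26 that was -0.06 without WT 2, and *FURIN*, a proprotein convertase, at 44.9 ± 7.79 and 64.0 ± 15.8. The genes at an unadjusted p, named after their values were seen, were *CTSL* (log2 fold change 0.61), *TMPRSS11E* (-0.77) and *PLAU*, which encodes urokinase (-1.13). Without WT 2 these were 0.33, -0.40 and -0.72. *PLAU* was at 61.2 ± 33.4 FPKM in the WT and 26.4 ± 9.0 in the KO lines, with an adjusted p of 0.261 by limma.

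Among the lists of other inhibitors, proteases and substrates, the largest log2 fold changes were those of *IL1B* (2.03) and *F2R* (1.69). Both are on the list of substrates and receptors. That list was written with earlier results known, and the paper reports *IL1B* as higher, so nothing about the list is read from this ranking. The protease gene *TMPRSS13* came next, at -1.23 (adjusted p = 0.308 by limma). Of 9 substrates and receptors of the kallikreins, 7 were tested, 0 were called and 3 were higher at an unadjusted p, beside 10.2% of all tested genes. *F2RL1*, which encodes protease-activated receptor 2, was at 11.0, 9.13 and 11.9 FPKM in WT 1, 2 and 3 and at 24.8, 12.6 and 27.6 in KO 1, 2 and 3. All KO lines lay above all WT lines, KO 2 narrowly, with a log2 fold change of 0.92 (95% interval 0.24 to 1.60, adjusted p = 0.261 by limma, exact permutation p = 0.1, the smallest possible). With library weights its adjusted p was 0.035 by limma, with most of the WT weight on WT 1. The other 2, named after their values were seen, were *F2R*, protease-activated receptor 1, at 0.947 ± 0.515 and 4.49 ± 2.80 FPKM, and *IL1B*, the interleukin 1 beta gene, at 0.371 ± 0.358 and 3.31 ± 2.13 FPKM (SD, n = 3 each, adjusted p = 0.261 for both by limma). *CDH1*, the E-cadherin gene, was at 241 ± 5.79 FPKM in the WT and 200 ± 30.3 in the KO lines, with groups that did not overlap (log2 fold change -0.28, adjusted p = 0.386 by limma). *FLG*, whose product kallikreins help to process, was at 51.6 ± 14.0 and 36.2 ± 10.6 FPKM (adjusted p = 0.387 by limma).

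Of the adhesion proteins cut during shedding, *DSG1* was at 14.4, 2.10 and 45.9 FPKM in WT 1, 2 and 3 and at 52.0, 5.36 and 1.24 in KO 1, 2 and 3, again high in WT 3 and KO 1 and low in WT 2 and KO 3. *DSC1* followed the same lines, at 3.88 FPKM in WT 3, 4.41 in KO 1 and 0.422 to 1.07 elsewhere. *CDSN*, corneodesmosin, was at most 0.487 FPKM and was not tested, as was *CAMP*, the cathelicidin precursor that kallikreins cut, at most 0.0441.

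**Figure D5:**
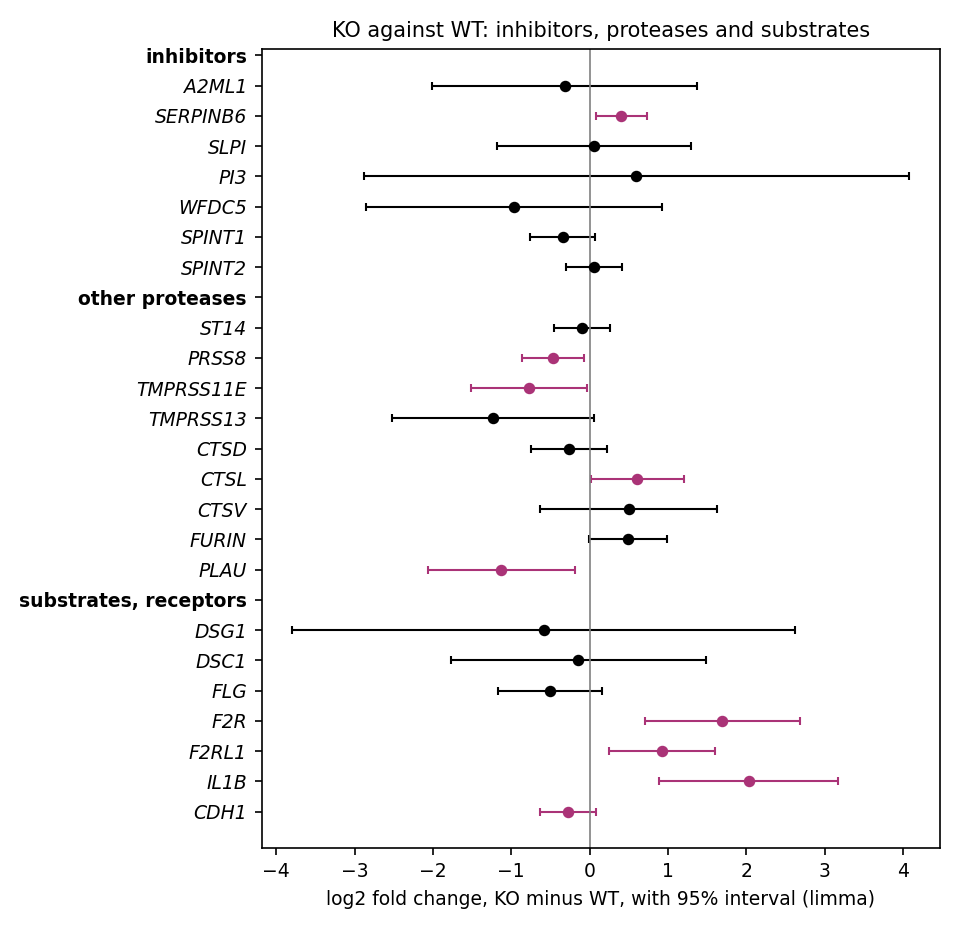
log2 fold change, KO minus WT, with its 95% interval from limma, for 7 tested inhibitors, 9 other proteases and 7 substrates or receptors. Purple marks genes whose WT and KO values do not overlap, among them *F2RL1* at 0.92 and *PRSS8* at -0.47.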

How the data were processed

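Poly(A) RNA of 6 HaCaT cell lines (3 WT, 3 FGFR2 KO) was sequenced from stranded, paired-end libraries. According to the submitters' processing notes and the study's methods, the authors trimmed reads with fastp 0.20.0 and quantified them with kallisto 0.46.1 on GRCh38.p13 and GENCODE release 37 models. The deposited values are FPKM per gene, and how they were computed is not given in the sources used here. Mitochondrial genes took 11.9% to 27.6% of the summed FPKM, which shifts all other genes of a library together. Depth was estimated from the steps of low values, of which 66.0% came out as whole fragments (within 0.02; 4% by chance), too few to recover counts. Count tests such as the authors' DESeq2 analysis were therefore not run.

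The 18 pseudoautosomal copies on Y were left out, and GENCODE release 44 gave symbols for 21400 of 21475 genes. The 12241 genes whose mean reached 0.5 FPKM, all 9 members among them, were fitted as log2(FPKM + 0.5) in limma 3.58.1 (R 4.3.3) with a mean-variance trend, genotype as the only term and Benjamini-Hochberg adjustment. Calls needed an adjusted p not above 0.05 and a difference of 0.5 or more on the log2 scale. In 3 simulations of this comparison with 12241 genes, at the median spread between lines, the fit called 95.3% of 2-fold increases and 89.0% of 2-fold decreases (fold 0.5), with 2 to 8 false calls. The members varied more, with a median SD over the 6 libraries of 0.57 beside 0.27 for all tested genes. Every simulated gene was given the same spread between lines, whereas the spread differs between genes in the real libraries. These shares therefore do not apply to the members, nor to the real fit as a whole, where 0 genes were called. Exact two-sided permutation tests used scipy 1.17.1. Genes named were all members, *FGFR2*, other kallikreins above 0.5 FPKM, the 4 genes of each list with the highest mean, and the 3 genes most like *KLK10* and *SPINK5*, of which 1 is not reported here. Flanking genes, kallikreins under 0.5 FPKM and the other list and marker genes in the text were named after their values were seen. The members and lists were chosen with earlier results of these data known. Alternatives covered pseudocount, filter, scaling, library weights, a block for the replicate number and leaving out each line. Replicates are separate cell lines in the study's account, and p-values measure the spread between them.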

Additional observations from a re-analysis of the deposited data

How the results depend on the processing

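The limma calls stood at 0 genes under every alternative run except library weights, where 1396 genes were called (1160 higher, 236 lower, 0 of them members), with WT 1 carrying 89.7% of the WT weight and KO 1 60.6% of the KO weight. Genes at an unadjusted p, 1536 in the report, numbered 630 to 2256 when a line was left out, 630 without KO 3 and 960 without WT 1. Members with groups that did not overlap numbered 0 in the report and 0 to 2 when a line was left out: *KLK7* and *SPINK6*, lower in the KO lines, without WT 2 (2 members), *KLK5*, higher, without WT 3 (1 member), and *KLK8*, lower, without KO 1 (1 member). With only 2 lines in a group such separation arises more easily. The share of all tested genes was not counted with a line left out, so nothing about the members is read from these counts. Of the members' values under the alternatives, 112 kept their sign and their side of the threshold and 22 changed sign. The other filters and the replicate block cannot move the log2 fold change, so part of the 112 was fixed in advance. With a mean of at least 2 FPKM *SPINK6* was not tested. Under median-of-ratios scaling the log2 fold change was -0.00446 for *KLK5* and -0.00790 for *KLK6*, and under quantile normalization it was -0.0355 for *KLK5*. With library weights it was -0.11 for *KLK6*, 0.53 for *KLK8*, 0.14 for *KLK10*, 0.15 for *KLK11* and 0.54 for *KLK13*, and it moved farther from 0 for *KLK7* (-0.70, adjusted p = 0.094), *SPINK5* (1.31, adjusted p = 0.078) and *SPINK6* (-1.02, adjusted p = 0.134), the 3 members at an unadjusted p there. *KLK7* and *SPINK6* were the 2 at an unadjusted p without WT 2. All genes at an unadjusted p numbered 2162 of 12241 with library weights and 1137 of 12180 without WT 2. Leaving out each line in turn gave -0.16 to 0.37 for *KLK5*, -0.29 to 0.41 for *KLK6*, -0.42 to 0.30 for *KLK8*, -0.48 to 0.19 for *KLK10*, -0.41 to 0.20 for *KLK11*, -0.54 to 0.39 for *KLK13* -0.96 to -0.10 for *KLK7*, -0.0923 to 1.004 for *SPINK5* and -1.33 to -0.05 for *SPINK6*, which was -0.23 with a pseudocount of 0.1. The cause of these changes was not tested beyond the lines left out. Lines with the same replicate number did not deviate together (correlations -0.21, 0.22 and 0.05), so the number does not pair them; with the replicate block 1762 genes were at an unadjusted p, 0 were called, and no member was called. In this limma fit of FPKM, with 3 lines a group, even *FGFR2*, at a log2 fold change of -2.73, was not called. The paper's DESeq2 analysis of 3 WT and 3 KO lines did report differentially expressed genes, with *FGFR2* strongly lower.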
